A study of Drosophila melanogaster with 3 samples.

Results

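Small nucleolar RNAs (snoRNAs) were followed through RNA sequencing of brains from 3rd instar Drosophila melanogaster larvae. The rows were taken by name: a row of the deposited expression table belonged to the set when its gene column, split at commas, held a name beginning "snoRNA:". This gave 206 of 15229 rows (1.35%), with 213 snoRNA names between them. In 198 rows the snoRNA stood alone, in 6 it was joined with a longer gene under 1 value, and in 2 several snoRNAs shared 1 value. By the letters after the colon, 90 rows were Psi rows, 87 were Me rows and 29 had other names.

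The study compared 3 genotypes with 1 library each. The control library came from larvae heterozygous for the PX2 allele of dBRWD3, a bromodomain and WD-repeat protein gene (dBRWD3PX2/+). The single mutant library came from homozygous larvae (dBRWD3PX2/PX2). The double mutant library came from larvae that were also homozygous for the GS21861 allele of yem (yemGS21861/GS21861), which encodes a subunit of the HIRA histone chaperone complex. All 3 genotypes carried at least 1 copy of PX2, and none was wild type. Larvae were raised at 25 °C, and libraries were made from 100 ng of RNA after removal of ribosomal RNA with Ribo-Zero Gold. How many brains went into a library was not stated. With 1 library per genotype there was no replicate error and no test, so every ratio below compares libraries. Where 3 values of a row are given, they stand in the order control, single mutant, double mutant. Of the 185 control values of these rows above 0, 105 were written with over 6 digits, mostly ending in 5 (102 values), while both mutant columns kept to 6 digits. The number of preparations behind the control column was therefore uncertain.

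snoRNAs act as guides that pair with a target RNA and place a modification on it. Box H/ACA snoRNAs, the Psi names, work with dyskerin (Nop60B in flies) to turn uridine into pseudouridine, and box C/D snoRNAs, most of the Me names, work with fibrillarin to methylate the ribose. The name states the target RNA and the position modified, so that Psi18S rows are guides for 18S ribosomal RNA. In Drosophila most snoRNAs are cut out of introns of other genes, often of genes for ribosomal proteins or of noncoding host genes (Uhg). U3 is a box C/D RNA needed for cleavage of the ribosomal RNA precursor rather than for a modification, and the MeU names guide sites in the spliceosomal RNAs.

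The RPKM values (reads scaled by the authors to transcript length and library size) of these rows were very high, and they need care. The 206 rows held 78.7%, 74.3% and 66.6% of all RPKM, so the snoRNAs and the scaling of the other rows depend on each other. Over the 169 rows whose snoRNA had a length in a later annotation, RPKM multiplied by annotated length summed to 2.52, 2.59 and 1.83 times the 1000000 that reads per annotated kilobase could reach. The values can thus not be reads per annotated kilobase with each read counted once. Levels of different snoRNAs are therefore compared only loosely below, and each row is mainly compared with itself across libraries. Read numbers cannot be had from these values and the depth behind them is unknown.

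The rows fell into an abundant and a nearly empty set. A mean of at least 1000 RPKM over the 3 libraries was found in 170 rows, a mean of 100 to 1000 RPKM in 3, and a mean under 100 RPKM in 33. Around the 1000 RPKM line, Psi18S-525b lay just below at a mean of 532 RPKM and MeU2-C28, a U2 guide, just above at 1641 RPKM. All 3 libraries listed 13 rows at 0, and 175 rows were above 0 in all of them. The empty rows were mostly Me rows. The class medians including them were 39495 RPKM for Psi and 46689 RPKM for Me rows in the control library, with 5 of 90 Psi rows and 26 of 87 Me rows under 100 RPKM on average.

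Names without an entry in the later annotation made up most of the low set. Of the 198 single-name rows, 165 had the same name there, 4 had a new name and 29 had none. The 29 all had a mean under 100 RPKM, with a median of 2.58 RPKM and a highest mean of 52.4 RPKM for Psi28S-612, and 25 of them were Me rows. Of the 169 with an entry, 162 reached 1000 RPKM and 2 were listed at 0 throughout. Among rows with an entry, the median in the control, single mutant and double mutant libraries was 39495, 38299 and 27432 RPKM for 84 Psi rows, of median annotated length 140 nt. For 58 Me rows, of median length 79 nt, it was 77235, 71639 and 53294 RPKM. The 27 other rows, of median length 81 nt, had 160832, 236913 and 162937 RPKM. In Psi and Me rows the double mutant library was the lowest of the 3 on this median, while in the other rows the control and double mutant medians were nearly equal. Row by row, the double mutant library was lowest in 18 of the 27 other rows with a mean of at least 1000 RPKM, joined rows included, and control in 5. The double mutant library was lowest in 24.8% of all named genes.

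**Figure D1:**
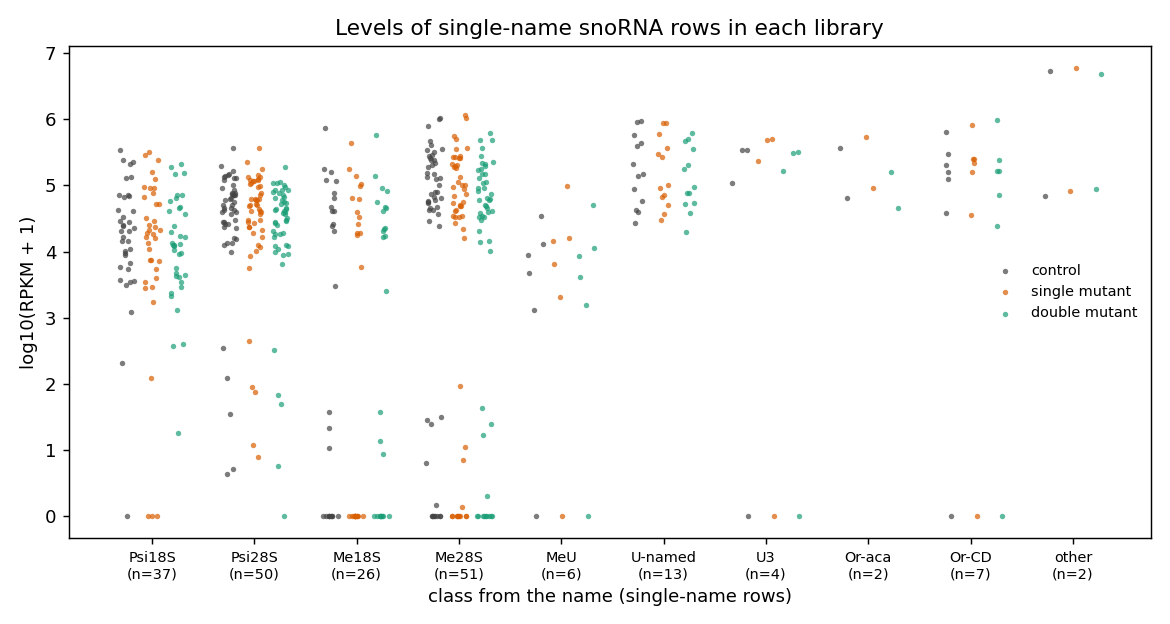
Levels of the 198 single-name snoRNA rows by class, as log10(RPKM + 1) in each of the 3 libraries, with 1 point per row and library and n the number of rows. Most rows lie above 3 on this axis (1000 RPKM), and the rows at 0 are mainly Me18S and Me28S names.

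Among the abundant rows, most snoRNAs had less RNA in the double mutant library than in control. Of the 170 rows with a mean of at least 1000 RPKM, 155 (91.2%) were lower and 15 were higher, against 41.9% lower among 9693 named genes with at least 1 RPKM in some library. The median log2 ratio, computed with 1 RPKM added, was -0.56, or 1.48-fold lower, while that of all named genes was 0.07. At least 2-fold lower were 21 rows and at least 2-fold higher were 0, where the share of all named genes was 1.62% lower and 3.06% higher. The shift was thus broad and mostly under 2-fold, with quartiles of -0.81 and -0.25. Over all 193 rows that passed the 1 RPKM filter, 29 passed 2-fold downwards and 6 upwards. These counts depended on the scaling. Dividing libraries by their medians gave 48 lower and 6 higher, and equal sums without small RNAs gave 14 lower and 10 higher. Under equal sums 119 of the 170 abundant rows were lower and 51 higher, with a median of -0.27, and the median of all named genes was 0.33. A scaling shifts all rows of a comparison together, so the distance of the abundant snoRNAs below the median of all named genes, 0.63 as deposited, hardly depends on it.

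Between the single mutant and control libraries the abundant snoRNAs were spread around no difference. Of the 170 rows 79 were higher and 91 lower, with a median log2 ratio of -0.03, against 45.8% lower and a median of 0.04 among all named genes. At least 2-fold higher were 2 rows and at least 2-fold lower were 8, beside 2.7% and 3.6% of all named genes. Over the 193 rows past the filter these counts were 7 and 17.

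The double mutant library was lower than the single mutant library in 142 of the 170 rows, with a median log2 ratio of -0.51, whereas 46.1% of all named genes were lower and their median was 0.04. At least 2-fold lower were 22 rows and at least 2-fold higher were 3, beside 1.48% and 4.27% of all named genes. Over the 193 rows these counts were 26 and 12, and with equal sums without small RNAs they became 9 and 14. Under that scaling 111 of the 170 rows were lower and 59 higher, with a median of -0.22, while the median of all named genes was 0.29. Both comparisons with the double mutant use the same library, so they are not separate evidence. The double mutant library was the lowest of the 3 in 133 of the 170 abundant rows (78.2%), against 24.8% of all named genes.

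In the double mutant to control ratio other abundant transcripts were also lower on the median, by less. The 152 other named genes with a mean of at least 1000 RPKM had a median log2 ratio of -0.12 for double mutant to control, with 101 lower. The 72 ribosomal protein gene rows under 10000 RPKM had -0.07, with 48 lower. The 23 spliceosomal and related rows named snRNA had -0.26, with 17 lower. Of all named genes 41.9% were lower. The sets overlap, since the 152 include snRNA rows with such a mean. They also include host rows with snoRNA-sized values, such as RpL28 and RpS7. In the single mutant to control ratio the same sets had medians of 0.24, 0.22 and 0.53, each above the -0.03 of the abundant snoRNAs. In the double to single mutant ratio they had medians of -0.32, -0.29 and -0.86, with 119 of 152, 61 of 72 and 22 of 23 lower. The share of all named genes was 46.1%. The snRNA rows were thus further down than the snoRNAs there, and 9 of the 23 were at least 2-fold lower, beside 1.48% of all named genes. Whether RNA quality, fragment size or the treatment of short reads differed between libraries was not tested.

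**Figure D2:**
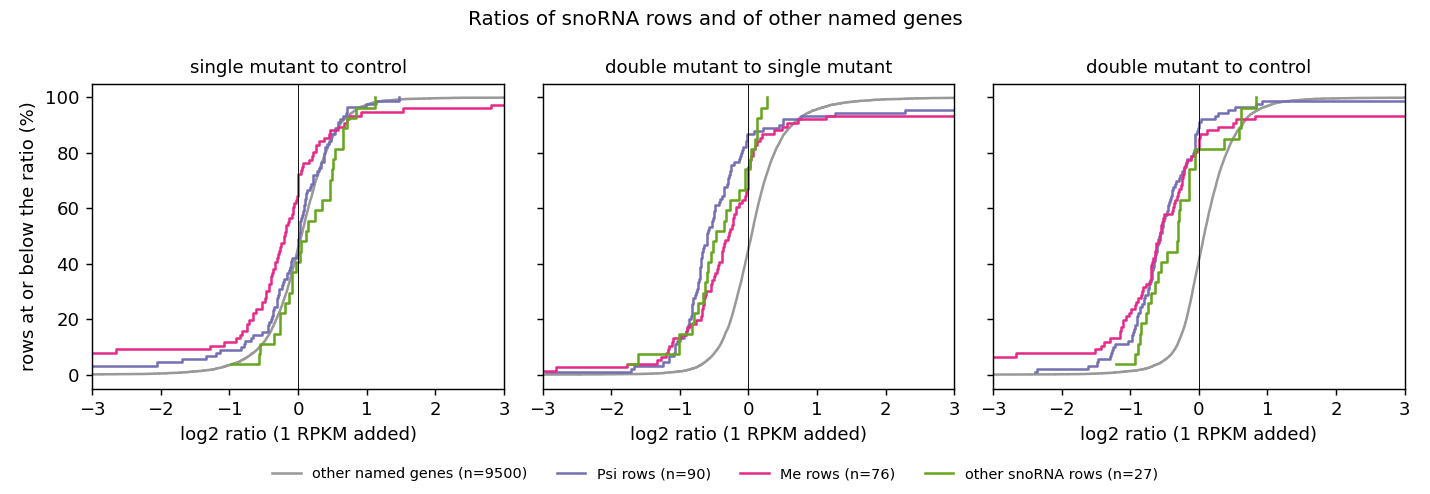
Cumulative share of rows (%) at or below each log2 ratio (1 RPKM added) for Psi, Me and other snoRNA rows past the 1 RPKM filter and for 9500 other named genes, in the 3 library comparisons. The x axis ends at -3 and 3. The snoRNA curves lie to the left of the grey curve over most of their range in both double mutant comparisons, and nearer to it for single mutant to control.

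Psi rows and Me rows had similar medians in the double mutant to control ratio and differed by a little in the others. Of 82 abundant Psi rows 76 were lower in the double mutant than in the control library, with a median log2 ratio of -0.58. Of 61 abundant Me rows 57 were lower, with a median of -0.58. Both counts are near the 91.2% of all abundant snoRNA rows that were lower, beside 41.9% of all named genes. In the single mutant to control ratio the Psi median was 0.02, with 37 of 82 rows lower, and the Me median was -0.21, with 43 of 61 lower. In that ratio 53.5% of all abundant snoRNA rows and 45.8% of all named genes were lower. The double mutant to single mutant medians were -0.61 for Psi and -0.38 for Me rows. Dividing each library by its median turned the single mutant to control median of all 90 Psi rows from 0.02 to -0.04.

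Length moved with class. Psi rows with an entry were 124 to 268 nt long, and 0 of the abundant rows under 120 nt were Psi rows. Median log2 ratios of single mutant to control were -0.23 for 44 rows under 80 nt, -0.03 for 31 rows of 80 to under 120 nt, -0.24 for 37 rows of 120 to under 140 nt and 0.05 for 45 rows of 140 to under 170 nt. The double mutant to control medians of these bins were -0.57, -0.56, -0.64 and -0.51. Over the 162 abundant rows with a length, Spearman's correlation of length with the log2 ratio was 0.26 for single mutant to control, -0.26 for double to single mutant and 0.05 for double mutant to control. In the double to single mutant ratio the bin medians were -0.25, -0.54, -0.60 and -0.67 from the shortest to the longest of these bins. Psi rows made up 36 of the 37 rows of 120 to under 140 nt and 42 of the 45 rows of 140 to under 170 nt. Within a class, the correlation of length with this ratio was -0.04 in 79 Psi rows and -0.30 in 57 Me rows. This is a description across rows that share libraries and loci, and the part of length in the class medians was not tested.

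The highest of all Psi rows was the row joining CG32088 with Psi18S-920, at 660400, 671266 and 638499 RPKM, which was nearly equal in the 3 libraries. The most abundant single-name Psi rows included guides for both large ribosomal RNAs. Psi28S-3342, a 28S guide on the X chromosome, had 368048, 366659 and 190841 RPKM. Psi18S-1377c had 348868, 286412 and 188324 RPKM. Psi18S-176 had 242936, 317456 and 151119 RPKM. In these 3 rows the double mutant library was the lowest, at log2 ratios to control of -0.95, -0.89 and -0.68. Psi18S-110, next by mean, had 226024, 242570 and 155611 RPKM, in the same order as Psi18S-176. Psi18S-1377e went another way: it had 212355, 122859 and 207885 RPKM, so that the single mutant library was low and the other 2 were nearly equal.

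Among the single-name Me rows 4 of the 5 highest were methylation guides for 28S RNA. Me28S-C788b had 1.05e+06, 1.05e+06 and 486353 RPKM. Me28S-A2113, in an intron of RpL30, had 997077, 1.15e+06 and 619260 RPKM. Me28S-G2703c, at the Uhg5 locus, had 474654, 495770 and 214973 RPKM. The double mutant value was the lowest in all 3, at log2 ratios to control of -1.11, -0.69 and -1.14. Me28S-A774a declined from control over the single to the double mutant library, with 783980, 566019 and 482483 RPKM. Me18S-A1806, the 18S guide among them, was lowest in the single mutant, with 747584, 444186 and 575077 RPKM. A row holding snoRNA:M and Me28S-G980, at 389841, 505595 and 388827 RPKM, was also among the highest Me rows, with nearly equal control and double mutant values.

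The highest snoRNA row of all lay outside these classes. The row snoRNA:185, on 2R from 15614602 to 15614657 in the dm3 build, had 5.42e+06, 5.90e+06 and 4.92e+06 RPKM. Its annotated length is 55 nt, among the shortest of the set, which makes its RPKM uncertain. The U14 rows, for a box C/D RNA known from yeast to be needed for 18S processing, were U14:30Ea with 944303, 865334 and 624257 RPKM and U14:30Eb with 577612, 590720 and 472161 RPKM. U49:66Db, another box C/D RNA, had 898620, 881033 and 498545 RPKM. All 4 of these rows were lowest in the double mutant library, with log2 ratios to control from -0.85 to -0.14. U27:54Ea had 440574, 365636 and 353249 RPKM, U76:54Eb had 392776, 264426 and 206439 RPKM, and Or-CD11c had 297899, 247651 and 164480 RPKM. U49:66Da had 212568, 293225 and 176444 RPKM.

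U3 rows and guides of the spliceosomal RNAs were higher in the single mutant library than in control. U3:9B, on X from 10242202 to 10242370, had 108544, 236913 and 166428 RPKM. U3:54Aa had 344598, 484313 and 312871 RPKM, and U3:54Ab had 347330, 495963 and 314602 RPKM. The single mutant was the highest library in all 3 rows, as it was in 35.3% of all named genes, by a log2 ratio to control of 1.13, 0.49 and 0.51. The 54A rows are near-identical copies, and a second row named U3:54Ab on unplaced sequence was listed at 0 in all libraries. U3:9B stayed above control in the double mutant library, at 0.62, whereas the 54A copies were at -0.14.

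MeU6-A47, a guide for the U6 spliceosomal RNA that lies at the Hlc locus on X, had 34033, 98053 and 49768 RPKM. MeU6-C68 had 12927, 15975 and 11339 RPKM. MeU5-U42 had 8730, 14346 and 8427 RPKM. All of these were highest in the single mutant library, MeU6-A47 by a log2 ratio to control of 1.53. MeU5-C46 had 4695, 6471 and 4053 RPKM and MeU2-C28 had 1294, 2057 and 1572 RPKM, with the same library highest, and MeU2-A31 was listed at 0 in all 3. Of the 5 detected MeU rows 5 were higher in the single mutant than in the control library, with a median log2 ratio of 0.67, beside 54.1% of all named genes. The rows named snRNA, which hold the targets of these guides, had 21 of 23 above control in the single mutant library and a median of 0.53. These groups were chosen by name, but the MeU rows were set apart after their values had been seen.

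**Figure D3:**
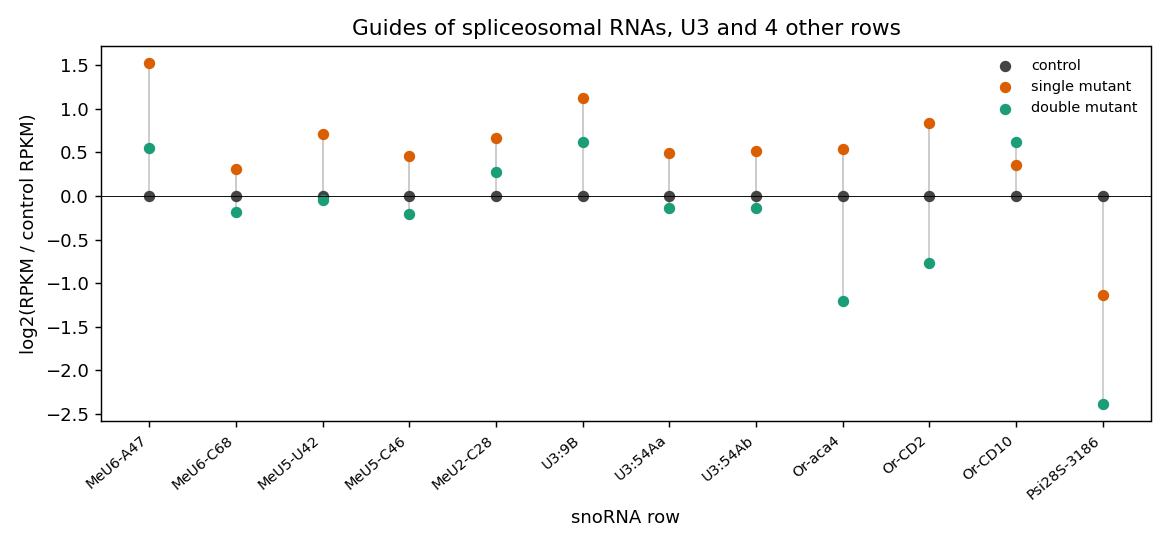
log2 of RPKM relative to the control library (no constant added) for the 5 detected MeU rows, the 3 detected U3 rows and 4 further rows, with 1 point per library. The single mutant point lies highest in the 8 MeU and U3 rows, from 0.31 for MeU6-C68 to 1.53 for MeU6-A47.

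Some snoRNAs of unknown target differed strongly between the mutant libraries. Or-aca4, an H/ACA RNA with no assigned target by its name (orphan), had 368905, 537345 and 160065 RPKM. Or-CD2, an orphan C/D RNA at the Uhg4 locus, had 122958, 219819 and 72246 RPKM. Both were highest in the single and lowest in the double mutant library, with log2 ratios between them of -1.75 and -1.61. Among detected single-name rows, 2 of 2 Or-aca and 1 of 6 Or-CD rows were at least 2-fold lower in this ratio, beside 1.48% of all named genes. The Or-CD median was -0.30, against -0.51 for all abundant snoRNA rows. Or-CD10, in the RpL7A gene, had 644570, 822842 and 990492 RPKM, so its double mutant value was the highest, at 0.62 above control. Psi28S-2149, in the RpS7 gene, had 45184, 60610 and 85753 RPKM and with 0.92 the highest double mutant to control ratio among the 170 abundant rows. It was named after its values were seen.

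The lowest double mutant value relative to control among abundant rows was that of Psi28S-3186, a 28S guide at the exba locus on 3R (1421085 to 1426891, the span of the whole locus). It had 51258, 23220 and 9823 RPKM, a log2 ratio of -2.38. The other 7 snoRNA rows of that locus had ratios from -0.90 to -0.25, so Psi28S-3186 stood below its neighbours. Low relative to the single mutant library were Me28S-A2589c, with 58863, 70297 and 20551 RPKM, and Psi28S-3316b, with 37107, 60399 and 19063 RPKM. Both lie in introns of dom, a chromatin remodeler gene, by the later annotation, with double to single mutant log2 ratios of -1.77 and -1.66.

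The single mutant library was the lowest in 24 of the 170 abundant rows (14.1%), 12 of them among the 61 Me rows, against 34.9% of all named genes. Psi28S-3405b, in Hrb98DE, had 23561, 5672 and 27695 RPKM, which was close to control. Psi18S-301, on 3R from 16400627 to 16400765, had 132705, 52142 and 70808 RPKM, so both mutant libraries were below control. Counting the 162 abundant single-name rows in which 1 library was at least 2-fold from both others, the control library stood high in 3, the single mutant low in 3 and the double mutant low in 7. The same patterns held for 0.361%, 1.27% and 0.227% of all named genes. The reverse directions had 0 rows each.

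Several guides have many copies. The largest cluster, 10 rows from Psi18S-525a to Psi18S-525j and 7 from Psi18S-640a to Psi18S-640g, lies at the Arc-p34 locus on 2L (20417060 to 20423029), whose gene product belongs to the Arp2/3 actin-nucleating complex. Psi18S-525d had 10192, 121 and 4216 RPKM. Psi18S-525b had 1204, 0 and 392 RPKM, and Psi18S-640a had 206, 0 and 367 RPKM. In these 3 copies the single mutant library was nearly empty. Psi18S-640e was listed at 0 except for 17.3 RPKM in the double mutant library. The other copies were detected in every library, from 1300 RPKM for Psi18S-640c in the double mutant to 31560 RPKM for Psi18S-525f in the single mutant library. The single mutant to control log2 ratio of these 13 copies ranged from -1.69 for Psi18S-525c to 0.99 for Psi18S-640g. Summed over all 17 rows the cluster had 143062, 122073 and 90498 RPKM, a log2 ratio of -0.23 for the single mutant and -0.66 for the double mutant to control. The sums thus differed far less than the extreme copies. Reads of near-identical copies can be given to either copy by the authors' counting, and whether this happened was not tested.

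**Figure D4:**
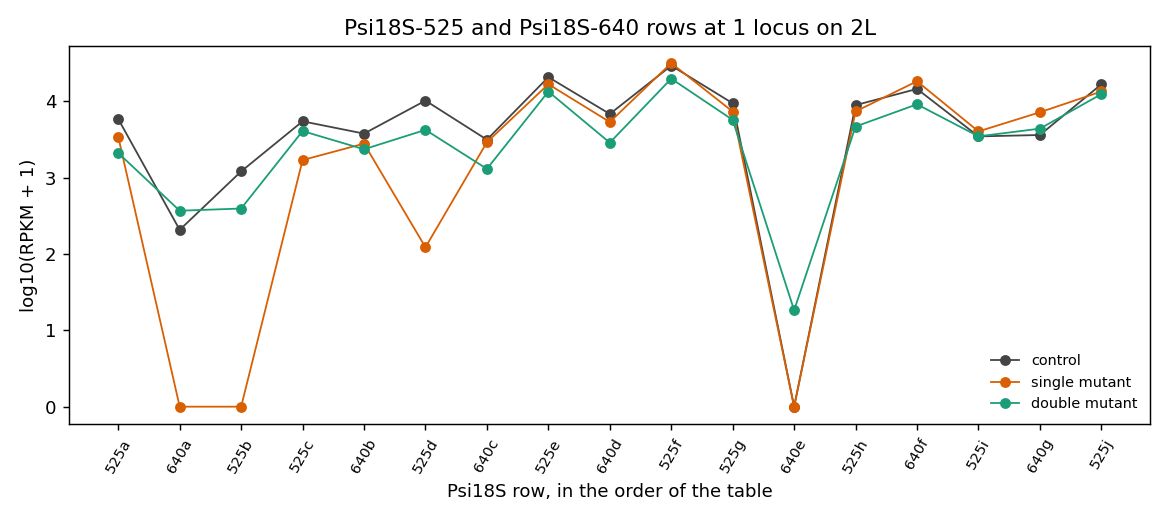
log10(RPKM + 1) of the 17 snoRNA rows at the Arc-p34 locus, in the order of the table, with 1 line per library. The single mutant line drops to 0 at Psi18S-640a and Psi18S-525b and to 121 RPKM at Psi18S-525d, where the other libraries keep 206 to 10192 RPKM.

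Several clusters were lower in the double mutant library than in control in most or all of their rows. The shares to set beside them are 91.2% of the 170 abundant snoRNA rows and 41.9% of all named genes. The counts below are thus near that of abundant snoRNAs in general. At the dom locus, which in the table spans 263331 bases of 2R and holds further genes, 13 of 14 snoRNA rows were single names, each placed in dom by the later annotation. All 14 of these rows were lower in the double mutant than in the control library, with summed values of 858357, 887374 and 483340 RPKM in control, single and double mutant. At the Uhg5 locus 10 of 10 were lower, with sums of 1.65e+06, 1.50e+06 and 1.02e+06 RPKM. At the Uhg1 locus 14 of 15 were lower, with sums of 2.24e+06, 1.88e+06 and 1.50e+06 RPKM. The RpS5a locus, host of 14 guides, had 12 of 14 lower, with sums of 759062, 705949 and 536231 RPKM. At Uhg1 the exception was U31:54Eb, with 42379, 66412 and 75601 RPKM, whose single and double mutant values were both above control. Across chromosome arms the median double mutant to control log2 ratio of abundant rows ranged from -0.63 on 2R to -0.44 on X.

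Joined rows followed the single rows. The row joining dom with Psi18S-841d and Psi28S-3316a had 88786, 124328 and 38104 RPKM, and the row joining Uhg1 with 2 U29 copies had 176700, 288589 and 142950 RPKM. Both were highest in the single mutant library and lowest in the double mutant library. In the rows of Uhg3, Uhg4, Uhg5 and CG32088 with their snoRNAs, the 3 libraries lay within 2-fold. All 6 joined rows were lower in the double mutant than in the single mutant library, by log2 ratios from -1.71 to -0.07. The same held for 142 of the 170 abundant snoRNA rows and 46.1% of all named genes.

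The ratios of snoRNAs differed from those of their host genes. By the later annotation 148 of the 169 rows with an entry lay in introns only, and 12 had no host. For 89 abundant snoRNA rows the host, 34 genes in all, had a row of its own with a mean under 10000 RPKM. In 89 of these 89 pairs the snoRNA was above its host in every library, by a median of 77.9 times in RPKM. The limit on the host level bears on this: in the other 21 pairs, with 7 host rows, 0 snoRNAs were above the host in every library, and the median of snoRNA to host was 0.169. The median double mutant to control log2 ratio was -0.52 for the snoRNAs and -0.08 for their hosts, and 73 of 89 snoRNAs had the lower ratio of the pair. Across these 89 pairs Spearman's correlation of the log2 ratios was 0.02 for single mutant to control, 0.14 for double to single mutant and -0.12 for double mutant to control. In the 21 pairs with higher hosts it was 0.27, -0.24 and 0.38. These are descriptions over rows that share hosts and libraries. For example, Arc-p34 had 42.2, 44.1 and 49.1 RPKM, while the sum of its snoRNAs was lowest in the double mutant library.

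**Figure D5:**
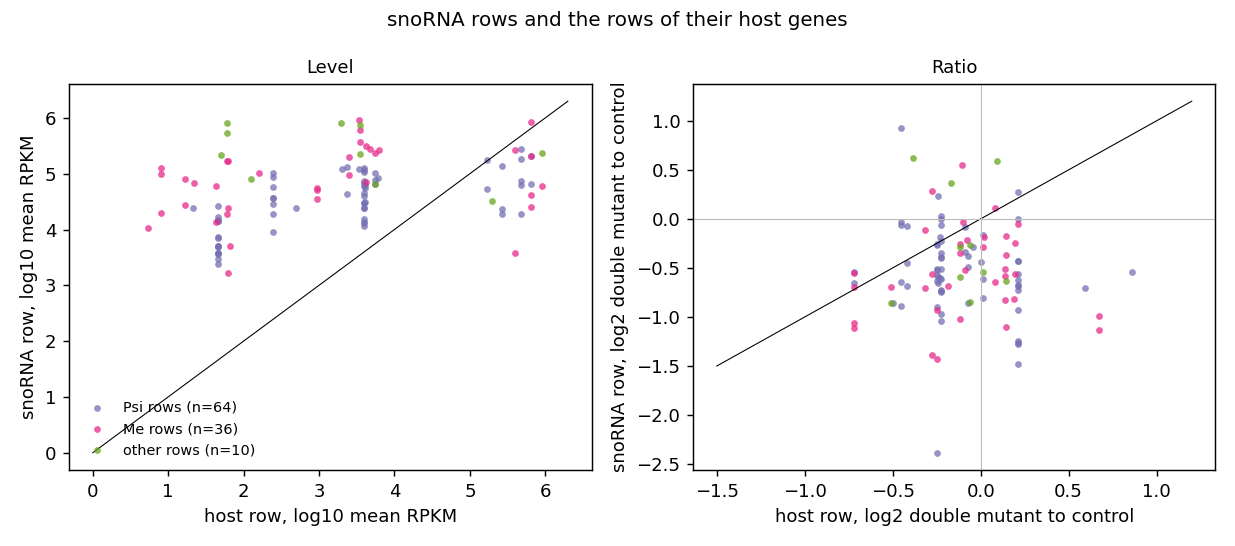
Abundant snoRNA rows against the row of their host gene, with 1 point per pair (110 pairs, 41 host rows): on the left the log10 of mean RPKM, on the right the log2 ratio of double mutant to control, with a line of equal values. In 89 pairs with a host under 10000 RPKM the snoRNA is above the line on the left, and on the right most points lie below 0 whatever the ratio of the host.

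Medians differed between types of host, and rows that had no host lay farthest from the others in both comparisons with control. Median double mutant to control log2 ratios of abundant rows were -0.57 in noncoding hosts such as Uhg genes, -0.51 in ribosomal protein genes, -0.59 in other protein-coding genes and -0.26 in the 10 rows with no host, which include the U3 rows. For single mutant to control they were -0.23, 0.07, -0.09 and 0.44 in the same order. For double to single mutant they were -0.26, -0.63, -0.49 and -0.64, so that there the noncoding hosts lay apart instead. In the noncoding hosts 29 rows of 36 were lower in the single mutant than in the control library. This was so in 91 of the 170 abundant snoRNA rows and 45.8% of all named genes. Many rows of the noncoding hosts share a locus, and 23 of the 37 rows of that group were Me rows, so that host type and class overlap.

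Some host rows carried snoRNA-sized values. Outside small RNA names, rows with a mean of at least 100000 RPKM included RpL28, CG13900, RpS7, RpL3 and Hrb98DE. Each of these holds at least 1 snoRNA of the later annotation that no row of the table names. RpL28, for instance, had 1.07e+06, 856943 and 754590 RPKM, and 3 of the 5 snoRNAs inside it are not named in the table. Of 274 snoRNA and related Cajal body RNA genes in the later annotation, 183 were named in the table.

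The genes for the snoRNA-binding proteins lay within 2-fold in all comparisons. Fib, the methyltransferase fibrillarin, had 144, 98.6 and 128 RPKM. Nop56, a scaffold of the C/D particle, had 122, 118 and 106 RPKM, and hoip, which binds the kink-turn of the RNA, had 212, 247 and 210 RPKM. Fib was lowest in the single mutant library and the others varied little. Among H/ACA proteins, NHP2 had 111, 129 and 100 RPKM, CG4038 (the Gar1 counterpart) had 15.8, 13.5 and 17.8 RPKM, and CG7637 (the Nop10 counterpart) had 257, 364 and 417 RPKM. Rows of 2 further proteins had values that cannot be read as messenger RNA: the row of Nop60B, joined with CG3363, had 307647, 272717 and 194854 RPKM, and nop5 had 64212, 70761 and 60691 RPKM. None of the 4 assembly factors found (pont, rept, CG10341 and CG10055), of the 9 nucleolar and RNA polymerase I genes found, nor wcd, a U3 particle gene, passed 2-fold in a comparison.

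Low rows differed most between libraries on the log scale but rested on small values. Past the filter, 23 rows had a mean under 1000 RPKM. For single mutant to control 5 of them were at least 2-fold higher and 9 lower, beside 2.7% and 3.6% of all named genes. For double to single mutant 9 were higher and 4 lower, beside 4.27% and 1.48%. For double mutant to control 6 were higher and 8 lower, beside 3.06% and 1.62%. Me28S-A1705 was listed at 90.6 RPKM in the single mutant and at 0 in the other 2 libraries. Me18S-A627 had 35.9 RPKM, Me28S-C1237 30.4, Me28S-A3365 27.7 and Me18S-G962 20.4 in control, and all 4 were listed at 0 in both mutant libraries. Me18S-A934 had 36.8, Me28S-U1130 15.7 and Me18S-C1280 12.7 RPKM in the double mutant library alone. Me28S-C437 had 23.6, 0 and 42.2 RPKM, and Me28S-U1554 had 10.2 and 23.4 RPKM in the mutant libraries and 0 in control. Psi28S-1936 had 3.24, 10.8 and 4.72 RPKM, and Psi28S-612 had 33.5, 74.9 and 48.8 RPKM. No fold is given against a value of 0.

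The libraries also differed in the rows of the mutated genes and of other tissues. BRWD3 had 29.1, 43.2 and 47.8 RPKM, and yemalpha had 11.9, 8.04 and 15.6 RPKM, so that neither row was lowest in the genotype that carries its mutant alleles on both chromosomes. RNA levels of this kind do not check the alleles, and directions for the mutants rest on the labels. Neuron markers were present in every library (elav had 21.2, 32.1 and 40.7 RPKM), and their sum over 5 genes was 68.4, 77.2 and 117 RPKM. Of these 5 genes 5 were higher in the double mutant than in control, as were 58% of all named genes. The 4 neuroblast markers summed to 70.3, 82.6 and 65.5 RPKM, with the single mutant library the highest in all 4, as in 35.3% of all named genes. The 3 glia markers summed to 44.9, 43.5 and 59.5 RPKM. Summed values of 5 fat body markers were 518, 181 and 1114 RPKM, of 5 salivary gland markers 160, 636 and 99.9 RPKM, of 3 hemocyte markers 152, 126 and 470 RPKM, and of 4 gut markers 78.3, 1.05 and 31.2 RPKM, with LysS listed at 0 in the single mutant library. Sgs5, Sgs7 and Sgs8 carried the salivary gland sum, while Sgs3 had 6.89, 5.40 and 2.65 RPKM and ng3 0.934, 0.604 and 12.4 RPKM. In bulk RNA, fewer cells of a type and less RNA per cell cannot be told apart. The part of tissue makeup in the snoRNA ratios was not tested.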

How the data were processed

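RNA from 3 genotypes of larval brain was sequenced, 1 library each, with the Ion Total RNA-Seq kit v2. The authors deposited RPKM values per assembled locus. Per the submitters' processing notes, FastQC, Trimmomatic, TopHat2 2.0.9, Cufflinks 2.0.2 and build dm3 were used, while their settings, and whether counting used the strand, were not stated there. Positions are dm3 loci of the table and can span a host gene or several genes. Names, lengths and host genes came from a later annotation (BDGP6), whose entries were matched to the rows by symbol or synonym. Its coordinates gave the lengths, the host gene around each snoRNA and the placement in introns, and none of them are printed here.

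From the deposited RPKM, log2((a + 1)/(b + 1)) was computed for rows with at least 1 RPKM in any library (193 of the 206 snoRNA rows), and a row was counted at 2-fold. The background was 9693 named genes. The script was tested on simulated data. Tools were Python 3.11.15, pandas 2.3.3, numpy 2.4.6 and matplotlib 3.10.9. Alternatives were other fold limits, 2 scalings and 3 subsets of rows, the subsets chosen after the values were seen. Named rows were the 5 highest single-name Psi and Me rows, the 5 highest and lowest ratios of single-name rows with at least 10 RPKM, joined rows, rows at 0 in 1 library, U3 and other non-guide rows by mean, protein lists and rows where 1 library stood apart; further rows named outside this rule were chosen after their values were seen. Members and lists were chosen with earlier results of these data known. Sequences were not used here, and 1 row of another gene is not reported here.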

Additional observations from a re-analysis of the deposited data

How the results depend on the processing

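Pseudocounts of 0.1 and 5 RPKM, no filter, a filter of 10 RPKM, and leaving out joined rows kept every count within 1.5 times and every median within 0.1 and on its side of 0. With a 1.5-fold limit 23 rows were higher and 32 lower for single mutant to control. For double to single mutant 14 were higher and 81 lower, and for double mutant to control 13 were higher and 90 lower. With a 4-fold limit 3 were higher and 11 lower, 10 were higher and 3 lower, and 6 were higher and 8 lower in the same order. In the settings that follow, counts and medians not given stayed within 1.5 times and 0.1 of the main values. Dividing libraries by their medians gave 48 lower rows and a median of -0.71 for double mutant to control, class medians of -0.72 (Psi) and -0.71 (Me), and reversed the Psi median for single mutant to control to -0.038. Equal sums without small RNA names gave 9 lower rows and a median of -0.18 for double to single mutant, and 10 higher, 14 lower and a median of -0.26 for double mutant to control, while the median of all named genes moved to 0.29 and 0.33. The other settings were chosen after the values were seen. Rows with a mean of at least 1000 RPKM gave 2 higher and 8 lower for single mutant to control, 3 higher for double to single mutant and 0 higher for double mutant to control. With 1 value per locus 8 were lower and the median reversed to 0.047 for single mutant to control, 6 were higher and 8 lower for double to single mutant, and 11 were lower with a median of -0.41 for double mutant to control. Without names lacking a later entry 2 were higher and 10 lower, 6 were higher, and 1 was higher in that order. The cause of these differences was not tested, apart from fewer rows entering the subsets. No paired analysis was possible because each genotype had 1 library, and for the same reason no replicate could be left out. The depth behind the RPKM values is unknown, so no counting error can be given, and values of the shortest RNAs are the least certain.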
